A study of Mus musculus with 2 samples.

Results

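The microRNA (miRNA) genes of striated muscle were examined in small RNA libraries of the mouse adrenal gland. These are Mir206, Mir133b, Mir1a-1, Mir1a-2, Mir133a-1, Mir133a-2, Mir208a, Mir208b and Mir499. They were chosen by symbol, as the classical miRNA genes of skeletal and heart muscle, and make up 9 of the 2202 miRNA genes in the deposited tables. The study holds 1 group of 2 libraries, made from total RNA of adrenal glands of male B6CASTF1/J mice aged 4 days, with no treatment or genotype contrast in the labels. Replicate 1 came from male 3 and replicate 2 from male 4, each with technical replicate 1, and both entries name the same donor record. That the libraries stand for 2 animals is an assumption, made because the male numbers differ, and each n = 2 below rests on it. With 1 library each, a difference between the libraries compares 2 libraries and no condition.

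Striated muscle is the contractile tissue of skeletal muscle and heart, and its miRNAs are switched on by muscle transcription factors as the cells differentiate. Mir206 and Mir133b lie side by side and are known from skeletal muscle, where Mir206 is largely absent from heart. The loci of miR-1a and miR-133a act in both skeletal and heart muscle, and each makes its main mature form from more than 1 place in the genome. Mir208a, Mir208b and Mir499 sit inside myosin heavy chain genes and are transcribed with them. The adrenal gland has a steroid-producing cortex and a medulla of chromaffin cells, and neither is a striated muscle.

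The mature sequences show which of these genes have distinct mature forms and which share a seed. RefSeq (build GRCm38.p6) gave sequences for 6 of the 9 genes, all except Mir1a-2, Mir133a-1 and Mir133a-2. A seed, bases 2 to 8 counted from the 5′ end, does most of the target recognition and is in capitals below.
miR-206-3p: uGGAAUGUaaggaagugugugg
miR-206-5p: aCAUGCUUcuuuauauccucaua
miR-1a-1-5p: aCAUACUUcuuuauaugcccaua
miR-133b-3p: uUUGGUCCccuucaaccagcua
miR-133b-5p: gCUGGUCAaacggaaccaaguc
miR-208a-3p: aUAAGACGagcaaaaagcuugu
miR-208b-3p: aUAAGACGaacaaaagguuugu
miR-499-5p: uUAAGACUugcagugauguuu

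The mature forms miR-208a-3p and miR-208b-3p share their seed and 19 of 22 bases, and their first 9 bases are identical. They differ by G10A, A16G and C18U, with the base of miR-208a-3p first and positions counted from the 5′ end. The seed of miR-499-5p, UAAGACU, differs from the UAAGACG of the miR-208 forms only at base 8. Over the whole length, 12 of 21 positions of miR-499-5p match miR-208a-3p. The passenger arms miR-206-5p and miR-1a-1-5p are alike at 20 of 23 positions, with G5A, C17G and U19C read from miR-206-5p to miR-1a-1-5p. Of the mature entries in that table, which numbered 1738, the seed of miR-206-3p also occurred in those of Mir6349 and Mir6382, and both of these genes had 0 counts in both libraries. As background, the main mature form of miR-1a has this seed too, and those of miR-133a and miR-133b are nearly identical.

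A count in the deposited tables belongs to a whole hairpin, so the mature forms of its arms were not separated. The hairpins of the neighbouring skeletal muscle genes are shown with both annotated mature arms in capitals. The counts do not show where in a hairpin the reads lay.
Mir206 hairpin: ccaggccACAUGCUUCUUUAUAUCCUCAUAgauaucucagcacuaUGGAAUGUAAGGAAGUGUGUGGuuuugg
Mir133b hairpin: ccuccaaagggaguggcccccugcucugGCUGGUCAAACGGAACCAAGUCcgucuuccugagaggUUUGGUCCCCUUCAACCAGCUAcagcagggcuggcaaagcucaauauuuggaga

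The Mir206 hairpin spans 73 bases at chr1:20679010-20679082 on the plus strand of mm10. The Mir133b hairpin spans 119 bases at chr1:20682769-20682887 on the same strand, 3687 bases away by their nearest ends. Both overlap an exon of the long noncoding gene Gm28653 on the same strand.

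Levels were expressed as CPM, the counts scaled to a total of 1000000 miRNA counts on the strand of the genes (the sense strand) in a library. Replicate 1 had 3961630 sense-strand miRNA counts and replicate 2 had 1686822, so that 1 count was worth 0.252 CPM in replicate 1 and 0.593 CPM in replicate 2. For a gene without reads, the upper limit was set at 3 counts, which is 0.757 CPM in replicate 1 and 1.78 CPM in replicate 2. The tables assigned no gene to reads with several alignments, which numbered 3176275 in replicate 1 and 1684373 in replicate 2. Intervals and limits below cover counting error only and treat each read as independent. Reads are not independent molecules, so the intervals can be too narrow, and differences between animals or library preparations are left out.

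Mir206 was clearly present in both adrenal libraries, and it held nearly all the counts assigned to the 9 muscle genes. Its counts were 4477 in replicate 1 and 4463 in replicate 2, or levels of 1130 CPM and 2646 CPM. The mean level was 1888 ± 1072 CPM (SD, n = 2), rank 61 of 2202 genes by mean level. By library it ranked 82 in replicate 1 and 53 in replicate 2. Of the counts assigned to these 9 genes, which leave out reads with several alignments, its share was 98.9% in replicate 1 (95% exact Clopper-Pearson interval 98.5 to 99.2%) and 98.1% in replicate 2 (97.6 to 98.5%).

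Genes next to Mir206 in mean level were Mir369 with 1925 ± 106 CPM, Mir872 with 2031 ± 367 CPM and Mir361 with 2087 ± 625 CPM above it. Below it came Mir676 with 1883 ± 384 CPM, Mir434 with 1838 ± 51.2 CPM and Mir342 with 1809 ± 589 CPM (SD, n = 2 each). All 6 lie within 1 SD of the mean of Mir206, so its rank among them was not resolved. The SD of Mir206 was larger than that of any of these 6 genes.

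Summed over the other 8 muscle genes, 51 counts were found in replicate 1 and 87 in replicate 2, a level of 32.2 ± 27.4 CPM (SD, n = 2). Only Mir499 and Mir208b among them reached 10 counts in both libraries. With Mir206, 3 of the 9 genes reached that number, beside 15.4% of all genes in the tables. At least 1 count in both libraries was present at 6 of the 9, beside 25.5% of all genes.

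**Figure D1:**
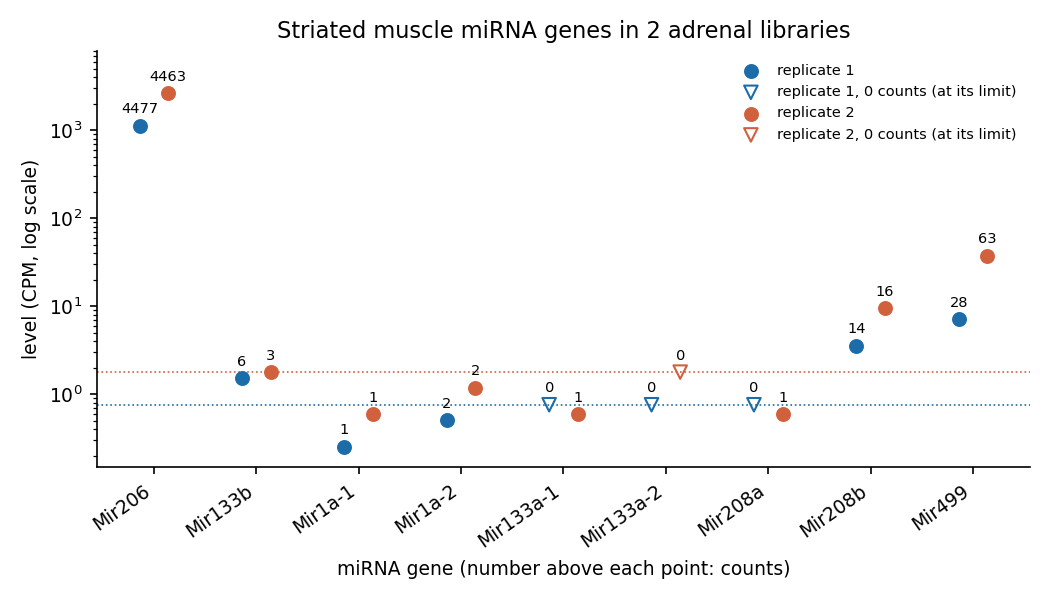
Level of each of the 9 striated muscle miRNA genes in CPM (log axis) in replicate 1 (blue) and replicate 2 (orange), with the read count above each point. Open triangles mark 0 counts, drawn at the limit of 3 counts (dotted lines, 0.757 and 1.78 CPM). Mir206 lies above 1000 CPM in both libraries, Mir499 and Mir208b lie between 3.53 and 37.3 CPM, and the other 6 genes lie at or under 1.78 CPM.

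The neighbour of Mir206 was almost uncounted. Mir133b, which overlaps the same noncoding gene in the annotation, was at 6 counts (1.51 CPM) in replicate 1 and 3 counts (1.78 CPM) in replicate 2. Mir206 therefore had 746 times the counts of Mir133b in replicate 1 (95% exact interval 343 to 2034) and 1488 times in replicate 2 (509 to 7217). The ratio was 1.99 times larger in replicate 2 (95% exact interval 0.425 to 12.3), a difference that 3 to 6 counts of Mir133b cannot resolve. The opposite strand of both genes had 0 counts in both libraries, and the either-strand column held the same counts as the sense strand.

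What Mir133b counted is uncertain. Reads of miR-133b-3p that also match a miR-133a locus would be set aside as reads of more than 1 locus, which the tables do not break down by gene. That pool was 709 times the count of Mir206 in replicate 1 and 377 times in replicate 2. The part that this sharing plays in the uneven counts of Mir206 and Mir133b was not tested.

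Uneven counts of adjacent miRNA genes were common in these libraries. In all, 131 pairs of neighbouring miRNA genes lay on 1 strand within 10 kb, with at least 100 counts of the higher gene in both libraries. Some genes belong to more than 1 pair and many pairs lie close together, so the pairs are not independent. The ratio of the higher to the lower gene, averaged over both libraries, had a median of 20.2, and it was over 100 for 29 pairs (22.1%) and under 10 for 59 pairs. In 28 pairs the lower gene had under 10 counts in both libraries. The counts of all pairs leave out reads with several alignments, and the part that this plays in their ratios was not tested. The mean ratio of Mir206 over Mir133b was 1117 and ranked 7 of 131, counting a lower gene with no reads at 3 counts. Of the 6 pairs ranked above it, 4 had a lower gene at 0 counts in at least 1 library. With 3 to 6 counts of Mir133b, the rank was not resolved. The 3 pairs with the largest mean ratio were Mir382 over Mir544, Mir380 over Mir1197 and Mir434 over Mir432, all on chromosome 12. Mir382 exceeded Mir544 by 735 times in replicate 1 (95% exact interval 498 to 1137) and by 4844 times in replicate 2 (1341 to 40004). Mir1197 had 1 count and 2 counts, so that the ratio for its pair was 3962 (711 to 156530) in replicate 1 and 811 (224 to 6702) in replicate 2. Mir432 had 0 counts in both libraries. The lower ends of the 95% exact intervals put Mir434 at least 2012 times higher in replicate 1 and 823 times higher in replicate 2.

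**Figure D2:**
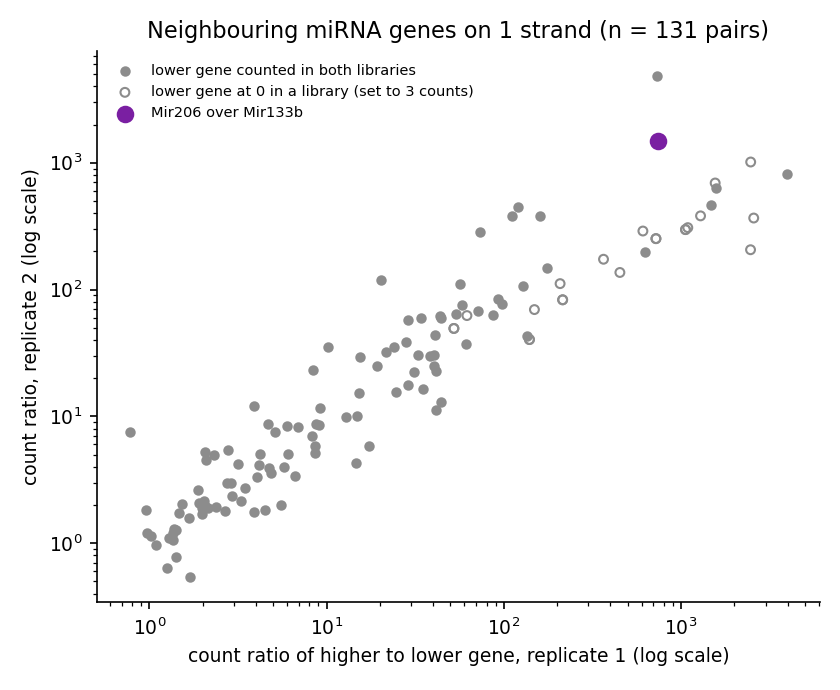
Count ratio of the higher to the lower gene for 131 neighbouring pairs of miRNA genes, in replicate 1 (x axis) and replicate 2 (y axis), both on log scales. Open circles have a lower gene at 0 counts in at least 1 library, set to 3 counts. Mir206 over Mir133b (purple) lies at 746 and 1488 and ranks 7 of 131 by the mean of its ratios, a rank that was not resolved.

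The genes of miR-1a and miR-133a, which are abundant in skeletal and heart muscle, were at the edge of counting. Mir1a-1 had 1 count in each library, and Mir1a-2 had 2 counts in each. Mir133a-1 had 0 counts in replicate 1 and 1 in replicate 2, and Mir133a-2 had 0 counts in both, which allows up to 0.757 CPM and 1.78 CPM. Summed over the 4 loci, replicate 1 held 3 counts and replicate 2 held 4.

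These 4 numbers count only reads that fit a single locus and set no upper limit on the mature miRNAs. Reads of the mature form that Mir1a-1 shares with Mir1a-2, or Mir133a-1 with Mir133a-2, align to more than 1 locus, so whether miR-1a and miR-133a were present in the gland cannot be told from these counts.

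The loci lie in pairs. Mir1a-1 (chr2:180389048-180389124, plus strand) and Mir133a-2 (chr2:180398379-180398482, plus strand) lie between annotated genes, 9255 bases apart by their nearest ends. Mir1a-2 (chr18:10785481-10785552) and Mir133a-1 (chr18:10782909-10782976) lie on the minus strand, 2505 bases apart, in introns of Mir133a-1hg, a noncoding gene on the same strand. Both also lie in an intron of the protein-coding gene Mib1 on the opposite strand.

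Mir1a-2 has another miRNA gene, Mir1b, on its opposite strand, so its counts depend on the strand being kept. Mir1b had 13 counts in replicate 1 and 2 in replicate 2, beside the 2 and 2 of Mir1a-2. In the column that ignores strand, both genes had 0 counts in both libraries. In replicate 1 Mir1a-2 had 0.154 times the counts of Mir1b (95% exact interval 0.0169 to 0.680), and in replicate 2 the counts were equal, with an interval from 0.0725 to 13.8.

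Among the miRNAs carried by myosin genes, Mir499 and Mir208b were counted in both libraries and Mir208a was not resolved from 0. Mir499, in an intron of Myh7b at chr2:155622880-155622958, was at 7.07 CPM in replicate 1 (28 counts) and 37.3 CPM in replicate 2 (63 counts), with a mean of 22.2 ± 21.4 CPM (SD, n = 2). Mir208b, in an intron of the slow myosin gene Myh7 at chr14:54975700-54975776, had 14 and 16 counts, or 3.53 CPM and 9.49 CPM, with a mean of 6.51 ± 4.21 CPM (SD, n = 2).

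Mir208a, in an intron of the heart myosin gene Myh6 at chr14:54949060-54949142, had 0 counts in replicate 1 and 1 in replicate 2. Each of these 3 miRNA genes lies on the same strand as its host. The differences printed above between miR-208a-3p and miR-208b-3p are internal to the mature form.

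Mir499 was counted 2.00 times as often as Mir208b in replicate 1 (95% exact interval 1.02 to 4.11) and 3.94 times in replicate 2 (2.25 to 7.30). Both intervals lie above 1 and overlap each other. Mir206 exceeded Mir499 by 160 times in replicate 1 (110 to 241) and by 70.8 times in replicate 2 (55.3 to 92.4), intervals that do not overlap. It exceeded Mir208b by 320 times (190 to 585) and 279 times (172 to 488).

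In order of mean level the genes ran Mir206, Mir499, Mir208b, Mir133b, Mir1a-2 and Mir1a-1, followed by Mir133a-1 and Mir208a at the same level, and Mir133a-2 at 0. The same order held for the first 3 in each library. From Mir133b downward every gene had 6 counts or fewer in each library, and that part of the order was not resolved.

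All 3 muscle genes with enough counts were higher in replicate 2. A gene was tested with at least 10 counts in either library, and was called past 2-fold where its log2 ratio (replicate 2 over replicate 1, on CPM + 0.5) lay above 1 or below -1. Mir206, Mir208b and Mir499 reached 10 counts in both libraries, so none of them was tested only because 1 library was high. Of 404 tested genes, 21.5% were past 2-fold in either direction and 9.65% were past it toward replicate 2.

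Mir499 differed most, being 5.28-fold higher in replicate 2 (95% exact interval 3.34 to 8.57; log2 ratio 2.32). Among the tested genes, 5 had a larger log2 ratio. Mir208b was 2.68-fold higher (1.23 to 5.94; log2 ratio 1.31), and its interval reaches below 2-fold. Mir206 was 2.34-fold higher (2.25 to 2.44; log2 ratio 1.23), with 31 tested genes above it.

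The median log2 ratio of these 3 genes was 1.31, beside -0.05 over all 404 tested genes. The size of the log2 ratio over all tested genes had a median of 0.50, a measure of the spread between these libraries. This median covers genes of all levels, and no spread was computed for genes with counts as low as those of Mir208b and Mir499. Among genes with a mean of at least 1000 CPM, as Mir206 has, 15.2% of 92 were past 2-fold and 8.70% were past it toward replicate 2.

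The raw counts of Mir206 were nearly equal in both libraries, while the sense-strand totals were 3961630 in replicate 1 and 1686822 in replicate 2. Its share of the total was therefore higher in replicate 2. Scaled by all reads of a library, including unaligned reads, the log2 ratio was 0.84 for Mir206, 0.80 for Mir208b and 1.81 for Mir499. Only Mir499 of the 3 was then past 2-fold, beside 88 of 404 tested genes. With 5 CPM added in place of 0.5, Mir208b (0.76) was no longer past 2-fold.

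**Figure D3:**
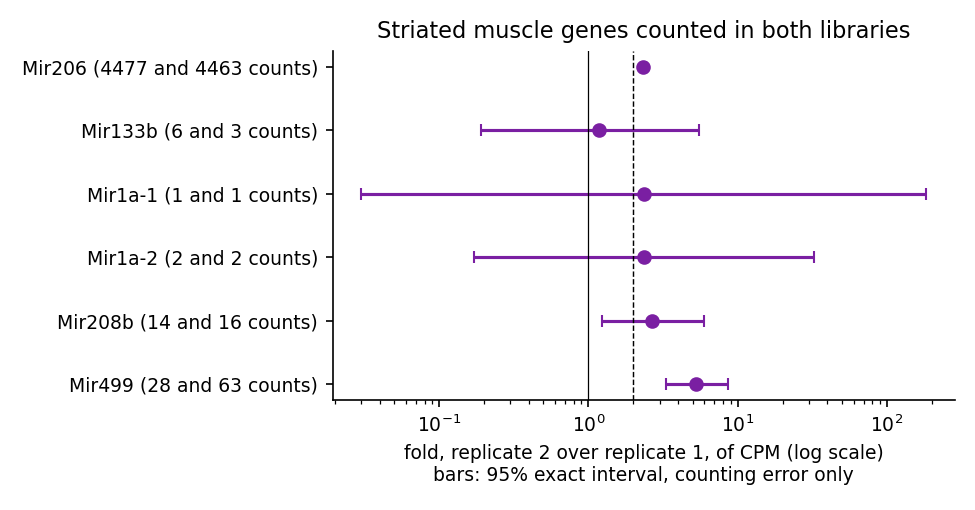
Fold of replicate 2 over replicate 1 in CPM (log axis) for the 6 striated muscle genes with counts in both libraries, with 95% exact intervals as bars. The solid line marks equal levels and the dashed line marks 2-fold. The intervals of Mir206 (2.25 to 2.44) and Mir499 (3.34 to 8.57) lie above 2-fold, and those of Mir133b, Mir1a-1 and Mir1a-2 span 1.

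Mir133b, at 1.17-fold (95% exact interval 0.190 to 5.50), gave no resolved difference between the libraries. Its interval includes the 2.34-fold of Mir206. Mir1a-1 and Mir1a-2 were both at 2.35-fold, which is the ratio of the library totals, with intervals from 0.0299 to 184 and from 0.170 to 32.4.

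**Figure D4:**
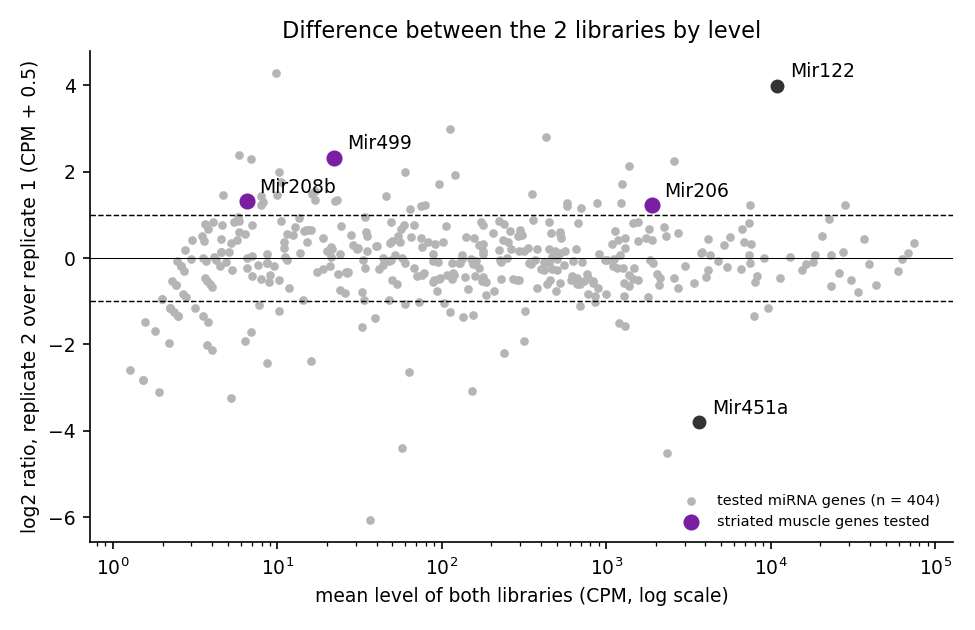
Log2 ratio of replicate 2 over replicate 1 on CPM + 0.5 against the mean level in CPM (log axis) for 404 tested miRNA genes (grey), with the 3 tested muscle genes in purple and Mir122 and Mir451a in black. Dashed lines mark 2-fold. Mir206, Mir208b and Mir499 lie above the upper line, with log2 ratios of 1.23, 1.31 and 2.32.

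Other genes had a ratio between the libraries close to that of Mir206, and those named here were picked for that nearness. Among the other genes with a mean of at least 100 CPM, which numbered 209, the 5 nearest in log2 ratio were Mir487b (1.22), Mir21a (1.22), Mir483 (1.20), Mir107 (1.27) and Mir501 (1.27). The measure of likeness was the difference in log2 ratio, from 0.00472 for Mir487b to 0.0470 for Mir501, over 2 libraries. Mir21a is abundant in many tissues, and Mir483 lies in the imprinted growth factor gene Igf2.

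A list of 15 further symbols linked to striated muscle matched 14 genes, of which 11 were tested and 3 were past 2-fold, beside 21.5% of all tested genes. Mir31 was higher in replicate 2, with 427 and 1273 counts, and reached 10 counts in both libraries. Mir675 (42 and 8 counts) and Mir1b (13 and 2) were lower, but passed the minimum count only through replicate 1, where they were high, so these calls were favoured by the filter. The median log2 ratio of the 11 was 0.07, beside -0.05 over all tested genes. Mir486, which is known from both muscle and red blood cells, had 49 and 33 counts (log2 ratio 0.64), and Mir133c had 0 in both libraries. Counts of both leave out reads with several alignments, and in the column that ignores strand Mir486 had 0 counts in both libraries. Many genes of this list are expressed outside muscle, such as Mir322 with 52878 CPM and 34419 CPM, so it is no measure of muscle RNA.

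For markers of other tissues, counts past 2-fold are to be read beside the 21.5% of all tested genes past it in either direction and the 9.65% higher in replicate 2. Mir122 of liver was 15.9-fold higher in replicate 2 and was the only liver gene matched. Both tested erythroid genes of 3 were lower, from a sum of 7235 CPM to 576 CPM, with Mir451b at 0 counts in both. Kidney genes had 2 higher and 2 lower of 5 (241 CPM and 379 CPM), and both lower ones, Mir215 and Mir194-1, passed the minimum count only through replicate 1, where they were high. Brown fat genes had 1 higher of 4 (796 CPM and 1801 CPM), and smooth muscle and stroma had none past 2-fold of 4 tested (42447 CPM and 38583 CPM). MiRNAs linked to the adrenal cortex had 2 higher of 4 (17526 CPM and 40644 CPM) and neuroendocrine miRNAs of the medulla had 1 lower of 4 (36299 CPM and 46670 CPM), all 8 with at least 10 counts in both libraries. Endothelial Mir126a was not past 2-fold (65222 CPM and 83391 CPM), nor was Mir137, the only neuronal gene tested of 7 (list sums of 978 CPM and 683 CPM). Mir137 held 3870 of 3873 neuronal counts in replicate 1 and 1143 of 1152 in replicate 2. Reads with several alignments are left out, so few counts at the Mir124a and Mir9 loci set no upper limit on their mature miRNAs. Of 4 pancreatic genes only Mir217 was tested (2 and 32 counts; list sums of 0.505 CPM and 20.7 CPM), and it passed the minimum count only through replicate 2, where it was high. The part of tissue carried along in dissection, or of any of these markers, in the level of Mir206 was not tested. In bulk tissue, fewer cells of a type and less RNA per cell cannot be told apart.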

How the data were processed

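Small RNA reads of 2 adrenal libraries were counted per miRNA gene by the authors. The deposited tables hold raw read counts, made on mm10 with annotation M21 per the file lists beside them. The aligner, trimming and filters are not given in the sources used here. Of 3 count columns, the one for the strand that held most counts (sense strand) served here. The 4 summary rows were left out of totals. Gene IDs matched GENCODE M21, whose coordinates (mm10, counted from 1) are printed.

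CPM, ratios and exact intervals (conditional binomial for ratios, Clopper-Pearson for shares, 95%) were computed with scipy 1.17.1, pandas 2.3.3 and numpy 2.4.6 under Python 3.11.15. The ratios and their intervals were tested on simulated data with counting error only. That test left out genes with few counts, such as Mir208b and Mir133b. Alternative scalings used edgeR 4.0.16 (TMM) and DESeq2 1.42.0 in R 4.3.3. No p-value was computed, since the labels name 1 group of 2 libraries, taken as 1 per animal from the numbers of the males. Named genes were the 9 members, 3 neighbours in level on each side of Mir206, 5 in log2 ratio, the 3 most uneven neighbouring pairs and 11 marker lists (55 symbols, 2 unmatched). Members and lists were chosen with earlier results of these data known.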

Additional observations from a re-analysis of the deposited data

How the results depend on the processing

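Of 61 alternatives for the main results, 47 stayed within the spread or counting interval, or within 1.5 times for counts of genes; scaling, strand column, added CPM, minimum count and fold were varied, and with 2 libraries, leaving out 1 cannot move a mean by more than its SD. Scaled by all reads, the summed level of the 9 genes was 539 CPM and that of Mir206 was 530 CPM. Levels scaled this way are shares of all reads, so they are smaller by construction. The log2 ratio of Mir206 was then 0.84, and that of Mir133b turned from 0.18 to -0.077. With this scaling 1 of the 9 genes was past 2-fold, beside 88 of 404 tested genes (counts chosen after the data had been seen). The log2 ratio of Mir206 was 1.12 under TMM scaling and 1.12 with DESeq2 size factors. With a minimum of 1 count, 6 of the 9 genes were counted in both libraries. Of the 9, 5 were then past 2-fold, as were 248 of 757 genes tested, but the 2 added ones, Mir133a-1 and Mir208a, had 0 counts and 1 count, and their call is set by the filter and the added 0.5 CPM. Past 2-fold were 57 of 404 tested genes with 5 CPM added, and past 1.5-fold were 167, beside 87 in the report. Among genes with a mean of at least 1000 CPM, a restriction chosen after the data had been seen, 14 were past 2-fold, 1 of them a muscle gene, since only Mir206 is that high. Leaving Mir122 and Mir451a out of the totals, also chosen after the data had been seen, left 3 muscle genes past 2-fold, beside 86 of 404 tested genes. Depth limits Mir208a, with 0 counts and 1 count. At Mir133b and the miR-1a and miR-133a loci, with 6 counts or fewer in each library, depth and reads set aside for several alignments cannot be told apart.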
